A study of Mus musculus with 15 samples.

Results

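The genes of the constitutive proteasome were followed in the whole blood of mice whose mothers had or had not been given tributyltin. They were taken as every protein-coding row whose symbol is Psma, Psmb, Psmc, Psmd, Psme, Psmf or Psmg followed by a number, leaving out the interferon-inducible core subunits Psmb8, Psmb9 and Psmb10. This rule gave 45 genes of the 55536 rows in the count table and used no measured value. Of the 45, 42 had enough counts to be tested, and Psmg3, Psma8 and Psmb11 did not.

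The animals were male wild-type C57Bl/6 mice aged 10 months. In the TBT group (8 animals) the mothers consumed tributyltin, an organotin ligand of the receptors RXR and PPAR gamma, in drinking water (3.07 µM, or 0.5 mg per kg a day) until weaning. The vehicle group (7 animals) had control mothers. Each library is total RNA of the blood of 1 animal, so all the blood cell types are mixed in it, and the dams and litters behind the animals are not named in the labels. Vehicle 3 is labelled with a liver tumor.

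The proteasome is the protease that breaks down proteins tagged with ubiquitin. Its barrel-shaped core is built of outer alpha rings, which form the gate, and inner beta rings, of which Psmb5, Psmb6 and Psmb7 carry the cutting sites. A regulatory particle of base and lid binds the tagged protein, removes the ubiquitin and unfolds the chain with a ring of ATPases. Other activators can take its place, and dedicated chaperones assemble the parts. Maturing red cells depend on protein breakdown while they remodel, and immune cells can exchange the 3 cutting subunits for inducible forms.

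The libraries held 6.03 M to 11.99 M gene counts (M, 1000000 counts). Levels are given as CPM, counts per M, on library sizes scaled by TMM, a method that sets the bulk of genes level between libraries, unless CPM of all counts is named. The TMM factors of TBT 2 (0.404), TBT 8 (0.528) and vehicle 6 (0.736) were the lowest of the 15. Every marker found was detected for erythroid cells, platelets, neutrophils, monocytes, B cells, T cells and NK cells. The 13 erythroid markers found, of 14 listed, summed to 1399000 CPM in TBT 2 and 952100 CPM in TBT 8, against 201300 to 388800 CPM in the other TBT libraries and 241300 to 602500 CPM in vehicle. A sum above 1000000 is possible because the scaled size of TBT 2 is smaller than its count total. The 9 platelet markers summed to 14320 CPM in TBT 2 and 14230 CPM in TBT 8, against 2370 to 4231 CPM in the other TBT libraries and 2547 to 6937 CPM in vehicle. Haemoglobin genes took 28.75% to 50.76% of the counts of a library, with the highest share in TBT 2. By this share of all counts TBT 8 (44.49%) lay close to vehicle 4 (44.05%). For Psme3, Psmf1, Psmd4, Psmd11 and the Psmb9 to Psmb6 ratio, values without TBT 2, TBT 8 and vehicle 6 are also given below. For most other members only estimates with these libraries are given.

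Transcripts of the core and of the regulatory particle were present at similar levels per length, and 1 activator gene stood far above both. Per kilobase of exon, the 14 tested core genes ranged 3.48-fold in vehicle, from 3.00 CPM per kb (Psmb7) to 10.4 CPM per kb (Psma6), with a median of 5.25. The 17 tested genes of base and lid had a median of 4.29 CPM per kb, from 2.20 (Psmd1, a scaffold of the base) to 17.98 (Psmd4, the ubiquitin receptor also called Rpn10). The chaperones were the lowest, with a median of 2.05 CPM per kb over 6 tested genes and a lowest value of 0.621 for Psmd9. Psme3, which encodes the nuclear activator PA28 gamma, lay at 547.6 CPM per kb, 30.5-fold above Psmd4, the next member. Exon lengths are those of all annotated exons joined, so a gene with long unused exons appears lower on this scale.

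**Figure D1:**
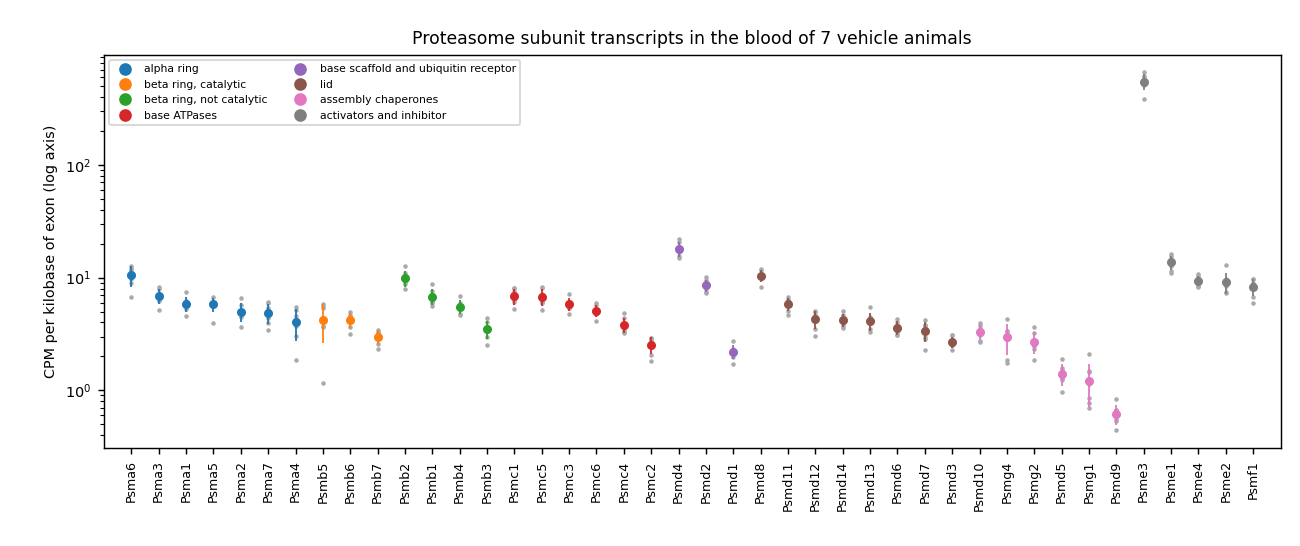
Level of each of the 42 tested subunit genes in the 7 vehicle animals, in CPM per kilobase of exon on a log axis. Grey points are animals, and coloured points with bars are means with SD, by role. Psme3 lies at 547.6 CPM per kb, and the next highest gene, Psmd4, at 17.98.

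Psme3 is therefore most of what a sum over these genes measures. It had 1615 ± 266 CPM in vehicle (SD, n = 7), the 52nd highest level of the 13364 tested genes, and the 39th per kilobase among 11145 tested protein-coding genes. It held 59.4% to 73.1% of all the members' counts in the vehicle libraries and 52.4% to 84.5% in the TBT libraries, with the highest shares in TBT 2 (84.5%) and TBT 8 (82.5%). Its counts were 19.3 to 47.9 times those of Psme1 plus Psme2, the subunits of the interferon-inducible activator PA28 alpha-beta, in vehicle, and 127 times in TBT 2. No exon of another gene overlaps Psme3 (ENSMUSG00000078652, GRCm38 chr11:101316213-101323537, plus strand). All the members together held 0.182% to 0.259% of a library's counts.

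Sequences upstream of the start sites of 4 genes on which the results below turn are shown as RefSeq gives them on GRCm38.p6, read 5′ to 3′ along the gene. Psme3 (chr11:101315963-101316212, plus strand) and Psmd4 (chr3:95042615-95042864, minus strand) are shown because the level of each rose with the erythroid markers on TMM-scaled CPM. For Psmd4 that relation did not pass on CPM of all counts, as given below. The choice was made after their values had been seen. Psme4 (chr11:30771525-30771725, plus strand), the activator PA200, and Psmb6 (chr11:70525107-70525356, plus strand) had the smallest p in each direction. The Psme4 stretch is shorter because it stops before the first annotated base of the gene. Capitals mark each match to a motif searched.
Psme3: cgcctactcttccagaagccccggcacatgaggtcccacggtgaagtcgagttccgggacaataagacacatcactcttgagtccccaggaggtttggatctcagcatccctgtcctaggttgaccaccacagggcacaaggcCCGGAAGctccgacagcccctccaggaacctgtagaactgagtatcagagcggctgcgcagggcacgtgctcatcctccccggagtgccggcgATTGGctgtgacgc
Psmd4: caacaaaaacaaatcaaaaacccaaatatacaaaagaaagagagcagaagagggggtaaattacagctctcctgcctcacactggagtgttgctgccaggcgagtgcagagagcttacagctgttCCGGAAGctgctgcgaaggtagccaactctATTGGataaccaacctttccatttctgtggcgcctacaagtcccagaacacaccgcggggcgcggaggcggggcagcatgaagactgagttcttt
Psme4: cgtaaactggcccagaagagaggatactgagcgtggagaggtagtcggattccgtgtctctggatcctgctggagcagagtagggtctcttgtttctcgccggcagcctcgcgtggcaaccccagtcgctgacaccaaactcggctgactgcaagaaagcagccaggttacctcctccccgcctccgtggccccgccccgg
Psmb6: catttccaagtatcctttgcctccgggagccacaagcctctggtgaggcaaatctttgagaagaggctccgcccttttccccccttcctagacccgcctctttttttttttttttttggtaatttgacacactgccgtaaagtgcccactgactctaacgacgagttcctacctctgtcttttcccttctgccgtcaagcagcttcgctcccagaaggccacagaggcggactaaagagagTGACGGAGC
The motifs searched, on both strands of the 250 bases before the start site, were the ETS site CCGGAAG, the antioxidant response element core TGANNNNGC, the CCAAT box CCAAT, the GATA site AGATAA and the CACCC box CCACNCCC. The Psme3 and Psmd4 stretches each hold an ETS site on the gene's strand and, nearer the start, a CCAAT box on the other strand, seen as ATTGG. Psma6, Psmc1 and Psmc2 held both motifs as well, and none of them passed with the erythroid markers in the comparison below. Psmf1, which did pass there on TMM-scaled CPM, held only the GATA site. A link between these motifs and the levels was not tested. The Psmb6 stretch holds an antioxidant response element core, TGACGGAGC, in its last bases. Of the 45 genes, 37 had an entry, and 12 of these (32.4%) held the ETS site, against 7.83% of the 27025 genes in the table. Those 12 were Psma6, Psmc1, Psmc2, Psmc6, Psmd11, Psmd12, Psmd2, Psmd4, Psmd6, Psme3, Psme4 and Psmg1. In Psme4 the match runs into the first annotated base and so is not in the stretch printed. The other motifs lay nearer to the share of all genes: 40.5% of members against 38.7% for TGANNNNGC, 35.1% against 37.5% for CCAAT, 5.41% against 11.4% for AGATAA and 16.2% against 17.9% for CCACNCCC. The shares are a description and were not tested.

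Maternal TBT was compared with vehicle to ask whether the proteasome genes of adult blood differed with the exposure. None of the 42 tested members passed an adjusted p of 0.05 (edgeR's quasi-likelihood test, Benjamini-Hochberg over all genes), and neither did any of the 13364 genes (0.0%). The lowest adjusted p of a member was 0.731, and the lowest of any gene was 0.207. At an unadjusted p under 0.05 there was 1 member, Psmb6 (2.38%), against 846 of all genes (6.33%). DESeq2 and limma-voom each called 19 genes and no member. Of the members, 23 (54.8%) had a higher estimate in TBT, against 59.4% of all genes. Their median log2 fold change was 0.01, against 0.05 over all genes, and its sign changed with the scaling used.

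The members' estimates lay close to 0. The median absolute log2 fold change was 0.0857 for the members and 0.138 for all genes, and the largest fold between the groups in either direction was 1.23 (Psmb6, lower in TBT). With 2 standard errors on either side, 40 of the 42 estimates stayed within 1 log2 unit of 0 and 30 within 0.5. No member had groups that did not overlap, against 0.112% of all genes. The median biological coefficient of variation was 0.177 for the members and 0.231 for all genes, and 11 members lay above the latter. Psme3 (0.491) was the most variable, followed by Psmf1 (0.397). Only 5 members had fewer than 10 counts in any library, so the depth was low for few of them.

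**Figure D2:**
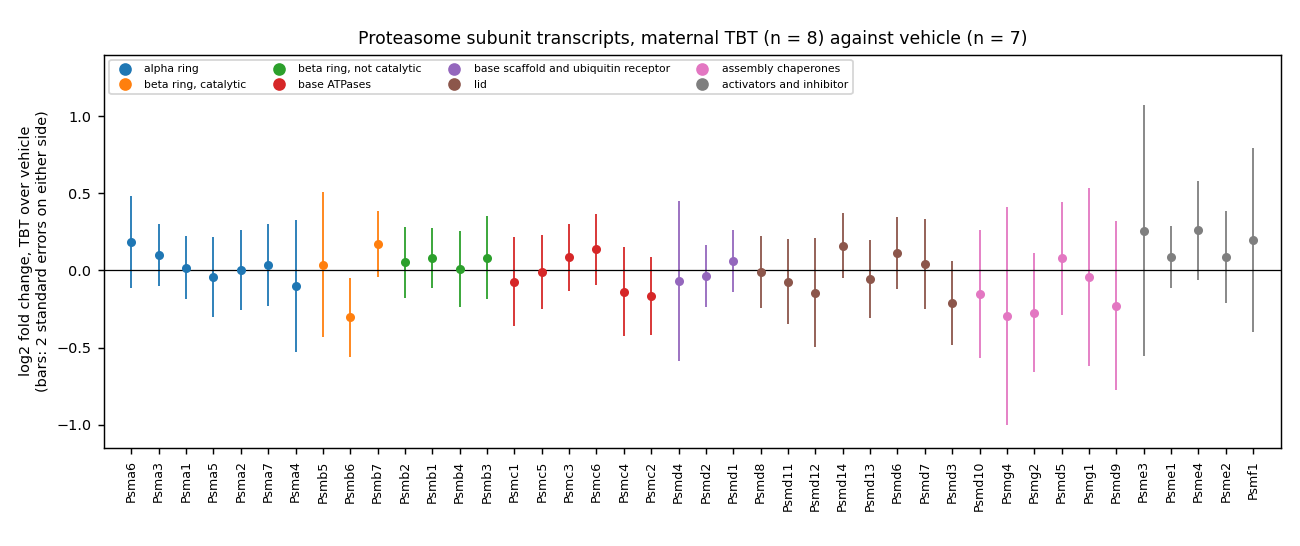
Log2 fold change of each tested subunit gene, TBT (n = 8) over vehicle (n = 7), with 2 standard errors on either side, coloured by role. All estimates lie between -0.30 (Psmb6) and 0.26 (Psme4), and the bar of Psmb6 alone does not reach 0.

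In the alpha rings, 5 of 7 tested genes had higher and 2 lower estimates, and the median log2 fold change was 0.02. Psma6 had the smallest p of them. Its level was lowest 8.25, median 13.9 and highest 15.7 CPM in vehicle, and lowest 11.8, median 13.9 and highest 21.03 CPM in TBT, with TBT 2 the highest. The groups overlapped, and the log2 fold change was 0.18 (SE 0.15, edgeR adjusted p 0.921). Psma3 had a log2 fold change of 0.10 and Psma4 the lowest of the ring, -0.10.

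Of the cutting subunits, Psmb6 had a lower level in TBT. It carries the caspase-like site, which cuts after acidic residues. Its level was lowest 5.93, median 8.19 and highest 9.29 CPM in vehicle, and lowest 5.02, median 6.15 and highest 7.58 CPM in TBT. No TBT animal exceeded the vehicle median, but the ranges overlapped. The log2 fold change was -0.30 (SE 0.13, edgeR p 0.0295, adjusted p 0.731). Psmb7, the trypsin-like subunit, had 10.3 ± 1.39 CPM in vehicle (SD, n = 7) and 11.6 ± 1.04 CPM in TBT (SD, n = 8), with 6 of 8 TBT animals above the vehicle median and a log2 fold change of 0.17 (edgeR adjusted p 0.872). Psmb5, the chymotrypsin-like subunit, was lowest 1.05, median 3.76 and highest 5.27 CPM in vehicle and lowest 2.63, median 4.01 and highest 4.96 CPM in TBT. The lowest value, in vehicle 7, rests on 6 counts. Its log2 fold change was 0.04 (edgeR adjusted p 0.996) and its sign changed when single libraries were left out.

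The 4 beta subunits without a cutting site all had slightly higher estimates, from 0.01 (Psmb4) to 0.08 (Psmb3). Psmb1, the one with the smallest p, was lowest 25.5, median 30.2 and highest 39.95 CPM in vehicle, and lowest 30.4, median 32.8 and highest 37.5 CPM in TBT. All 8 TBT animals lay above the vehicle median, yet the vehicle range enclosed the TBT range, and the edgeR adjusted p was 0.964. Over the whole core, 11 of 14 genes had higher estimates and the median log2 fold change was 0.04.

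In the base, 2 of the 6 ATPases had higher and 4 lower estimates. Psmc2 was lowest 9.18, median 13.4 and highest 14.7 CPM in vehicle, and lowest 8.87, median 11.9 and highest 13.3 CPM in TBT. No TBT animal lay above the vehicle median of Psmc2, while the ranges overlapped over most of their length (log2 fold change -0.17, edgeR adjusted p 0.904). Psmc6 had a log2 fold change of 0.14 and Psmc4 of -0.14. The scaffolds Psmd1 and Psmd2 had log2 fold changes of 0.06 and -0.04, with SE of 0.10 each.

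The lid takes ubiquitin off the substrate through the protease Psmd14 (Rpn11). Psmd14 was lowest 10.2, median 11.7 and highest 14.3 CPM in vehicle, and lowest 10.8, median 13.3 and highest 15.4 CPM in TBT. In TBT, 7 of the 8 animals lay above the vehicle median, with overlapping ranges, and the log2 fold change was 0.16 (SE 0.11, edgeR adjusted p 0.872). Psmd3, a lid scaffold, was lowest 11.2, median 12.5 and highest 15.3 CPM in vehicle, and lowest 6.72, median 12.02 and highest 13.9 CPM in TBT. Its lowest values were those of TBT 2 and TBT 8, and its log2 fold change was -0.21 (SE 0.14, edgeR adjusted p 0.872). Of the 8 lid genes, 3 had higher and 5 lower estimates. Over base and lid together, 6 of 17 were higher and the median log2 fold change was -0.04.

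Of the assembly chaperones, 5 of 6 tested genes had lower estimates. Their median log2 fold change was -0.19, and adjusted p ran from 0.886 to 0.997 (edgeR). Psmg2, which with Psmg1 guides the alpha ring together, was lowest 3.23, median 4.38 and highest 6.39 CPM in vehicle, and lowest 2.63, median 3.60 and highest 5.59 CPM in TBT. In TBT, 2 of the 8 animals lay above the vehicle median and the groups overlapped (log2 fold change -0.27, SE 0.19). Psmd9, a chaperone of the ATPase ring, had 1.17 CPM in TBT 2 and 0.964 CPM in TBT 8, against 3.23 to 6.49 CPM in the other 13 libraries. Psmg4 was lower in TBT 2 and TBT 8 as well, at 0.584 and 0.193 CPM against 0.742 to 2.59 CPM elsewhere. Psmd10 (gankyrin), which also binds the ATPase ring, was high in TBT 2 on this scale, at 8.47 CPM against 2.77 to 5.77 CPM in the other 13 libraries. On CPM of all counts Psmd10 was not high in TBT 2, at 3.41 CPM against 3.36 to 7.55 CPM in those 13. Psmd9 and Psmg4 were below those 13 in TBT 2 and TBT 8 on both scales. The low values of Psmd9 and Psmg4 rest on few counts and are uncertain. The lowest count in a TBT library was 4 for Psmd9 and 1 for Psmg4.

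All 5 genes of the activators and their inhibitor had higher estimates, by a median of 0.20 on the log2 scale, and none passed the test. For Psme3 the group means and the animals pointed in different directions. Its level was lowest 1134, median 1562 and highest 1948 CPM in vehicle, and lowest 715, median 1177 and highest 4858 CPM in TBT. TBT 2 (4858 CPM) and TBT 8 (3928 CPM) lay above every vehicle animal, and the other 6 TBT animals lay below the vehicle median. The log2 fold change was 0.26 (SE 0.41, edgeR adjusted p 0.977). Without TBT 2, TBT 8 and vehicle 6 it was -0.52 (edgeR adjusted p 0.147). TBT 2 and TBT 8 held its highest TBT values, so leaving them out by itself lowers the estimate. In mixed blood, fewer cells of a type and less RNA per cell cannot be told apart. On TMM-scaled CPM the erythroid marker sums of TBT 2 and TBT 8 stood above the other libraries as well.

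Psmf1, which encodes the proteasome inhibitor PI31, was lowest 38.7, median 56.2 and highest 63.0 CPM in vehicle, and lowest 30.5, median 44.1 and highest 128.3 CPM in TBT. TBT 2 (116 CPM) and TBT 8 (128.3 CPM) were the highest of the 15 libraries, TBT 3 (58.1 CPM) lay just above the vehicle median, and the other TBT animals lay below it. The log2 fold change was 0.20 (SE 0.30, edgeR adjusted p 0.977), and -0.32 without the 3 libraries (edgeR adjusted p 0.299). Psmd4, in the base, was lowest 41.9, median 48.9 and highest 61.5 CPM in vehicle, and lowest 21.5, median 37.4 and highest 103 CPM in TBT. Its high values were again those of TBT 2 (103 CPM) and TBT 8 (72.3 CPM), and its log2 fold change went from -0.07 with all libraries to -0.45 without the 3 (edgeR adjusted p 0.132).

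Psme4 had the highest positive estimate of all members. It was lowest 68.9, median 76.7 and highest 89.9 CPM in vehicle, and lowest 61.9, median 83.4 and highest 146 CPM in TBT, with TBT 2, TBT 3 and TBT 8 the highest. The groups overlapped, and the log2 fold change was 0.26 (SE 0.16, edgeR adjusted p 0.869). Psme1 had 30.1 ± 4.47 CPM in vehicle (SD, n = 7) and 32.0 ± 3.34 CPM in TBT (SD, n = 8), a log2 fold change of 0.09. Psme2, its partner, also had a log2 fold change of 0.09 (SE 0.15). Psme2 has a near-identical copy, Psme2b, which was given 24 to 210 counts per library, so its own level is uncertain.

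Without TBT 2, TBT 8 and vehicle 6, 3 of 43 members (6.98%) had an unadjusted p under 0.05, against 17.0% of all genes in the same fit. They were Psmd4, Psme3 and Psmd11, a lid subunit with a log2 fold change of -0.24, and each was lower in TBT. None passed after adjustment. For each of the 3 genes TBT 2 and TBT 8 held the highest TBT values, so leaving these libraries out by itself lowers the estimate.

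**Figure D3:**
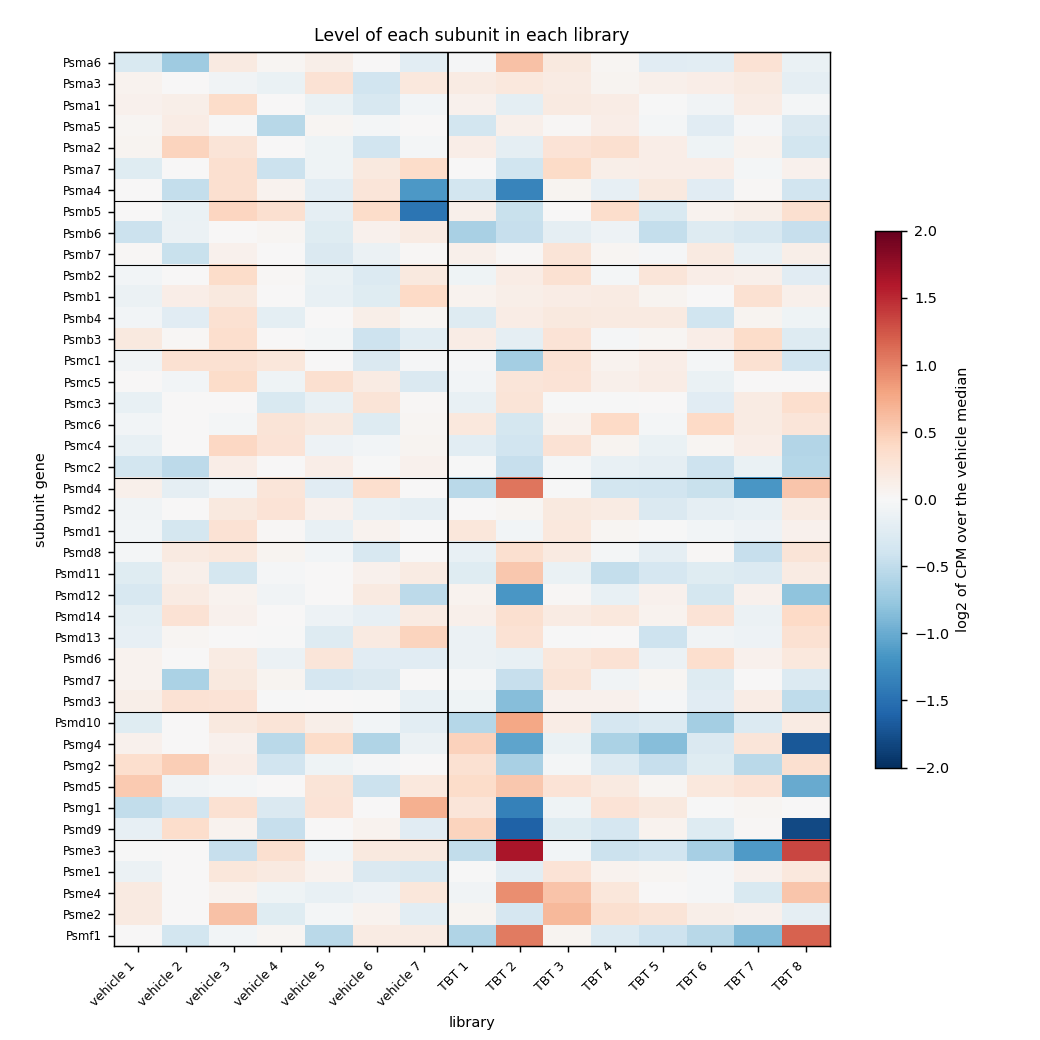
Level of each tested subunit gene (rows, grouped by role) in each of the 15 libraries (columns, vehicle left of the line), as log2 of CPM over the vehicle median. Red is above and blue below that median. TBT 2 and TBT 8 carry the strongest colours, red for Psme3, Psmf1 and Psmd4 and blue for Psmd9.

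How far TBT 2 and TBT 8 stand apart depended on the gene and on the scale. On TMM-scaled CPM, both lay above the other 13 libraries for 5 members (Psmd14, Psmf1, Psmd4, Psmd8 and Psme3) and below them for 6 (Psmd9, Psmc4, Psmd3, Psmd12, Psmg4 and Psmc1), while 17.4% of all tested genes lay above and 12.1% below. On CPM of all counts they lay above for Psme3 alone (1958 and 2068 CPM against 1126 to 1727 CPM) and below for 28 members, against 0.868% and 55.8% of all tested genes. The members without Psme3 summed to 890 CPM in TBT 2 and 832 CPM in TBT 8 on the TMM scale, against a vehicle range of 674 to 775. On CPM of all counts the same sums were 359 and 438, against 505 to 1053. Psme3 was thus above the other libraries in both on either scale, whereas the sum of the other members changed side.

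Across animals, the level of Psme3 followed that of the erythroid markers. Each marker list was summarised as its mean log2 CPM, and each of the 42 members was compared with 6 lists over the 13 libraries other than TBT 2 and TBT 8, which makes 252 relations on each scale. The comparison was chosen after values had been seen. For Psme3 and the erythroid list, Pearson's r was 0.970 (permutation test, p 1e-05, the smallest that 100000 permutations can give, adjusted p 0.00252) and Spearman's rho was 0.907 (permutation p 6e-05, adjusted p 0.0151). Without TBT 6 and TBT 7, the libraries farthest from the median of the markers, r was 0.942. Within vehicle r was 0.963 and within the remaining TBT animals it was 0.976. On CPM of all counts r was 0.903 (permutation p 0.00012, adjusted p 0.00252) and rho was 0.769 (permutation p 0.00345, adjusted p 0.0248), and r was 0.745 without vehicle 6 and TBT 7. Both quantities of a relation are divided by the same library size, and that size differs between the scales.

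Only Psmd4 and Psmf1 joined Psme3 in passing with the erythroid list on the TMM scale, and neither did on CPM of all counts. These 3 are 7.14% of the members, and 2.21% of all genes outside the list had a positive r with as small a permutation p as the last member to pass. On CPM of all counts it was 2.38% of the members and 1.6% of all genes. Psmd4 had r 0.886 (permutation p 0.00011, adjusted p 0.00924) and rho 0.835 (permutation p 0.00069, adjusted p 0.0580) on the first and r 0.611 (permutation p 0.0276, adjusted p 0.0536) with rho 0.533 (permutation p 0.0627, adjusted p 0.108) on the second. Psmf1 had r 0.804 (permutation p 0.00069, adjusted p 0.0435) and rho 0.813 (permutation p 0.00129, adjusted p 0.0813) on the first and r 0.410 (permutation p 0.165, adjusted p 0.224) with rho 0.484 (permutation p 0.0970, adjusted p 0.154) on the second. Within vehicle their r on the TMM scale was lower, at 0.488 for Psmd4 and 0.327 for Psmf1, and without TBT 6 and TBT 7 it was 0.754 and 0.634. Psmb1 of the core, with r -0.27, showed no such relation (permutation p 0.371, adjusted p 0.780; rho -0.17, permutation p 0.576, adjusted p 0.912). The median r of the 42 members with the erythroid list was -0.07 on the TMM scale.

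**Figure D4:**
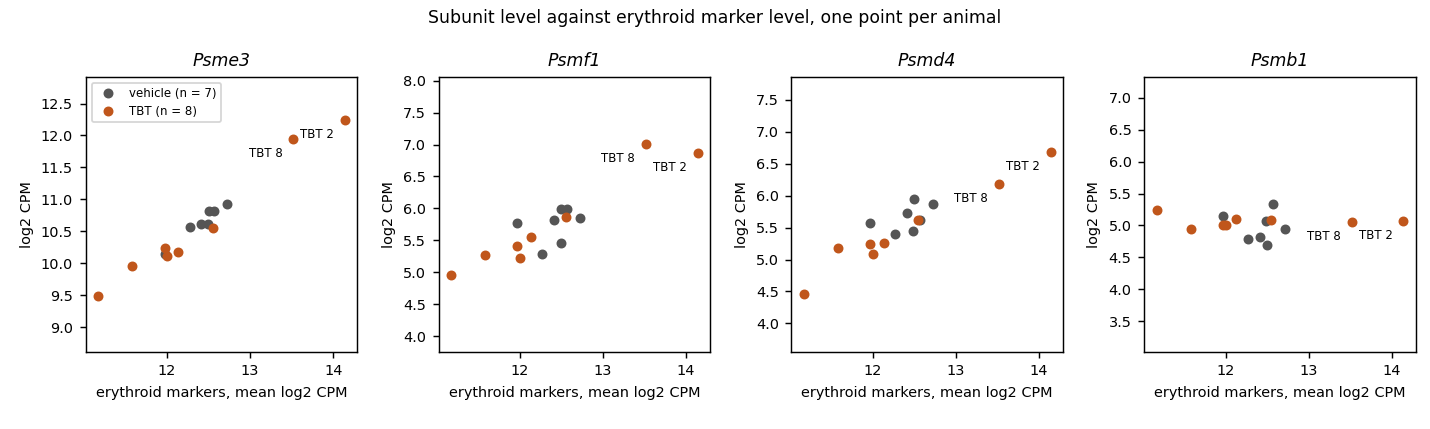
Level of Psme3, Psmf1, Psmd4 and Psmb1 (log2 of CPM on TMM-scaled sizes plus 0.5) against the mean log2 CPM of the 13 erythroid markers, a point per animal, vehicle grey and TBT orange. Psme3 climbs with the markers in both groups (r 0.970 over the 13 libraries other than TBT 2 and TBT 8), and Psmb1 stays level.

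With the other lists the outcome turned on the scale. On TMM-scaled CPM 1 relation passed, a negative r of Psme4 with the B cell list, where 0.172% of all genes had a negative r by the same measure. The r of Psme4 was -0.904 on that scale (permutation p 2e-05, adjusted p 0.00252). On CPM of all counts it was 0.346 and did not pass (permutation p 0.245, adjusted p 0.315), so its sign changed with the scale. Psme3 with the platelet list had r 0.756 and did not pass (permutation p 0.00285, adjusted p 0.0798). Its r was 0.889 within vehicle and -0.0307 within the remaining TBT animals. It was 0.186 on CPM of all counts (permutation p 0.547, adjusted p 0.633). On CPM of all counts large shares of members and of all genes were related to the leukocyte lists. With positive r, 66.7% of the members passed with the neutrophil list, against 50.4% of all genes. For the monocyte list it was 78.6% against 57.5%, for the B cell list 57.1% against 48.8% and for the T cell list 73.8% against 56.4%. With the platelet list 26.2% of the members passed with negative r, against 9.19% of all genes. On that scale the red cell transcripts are part of every denominator, and their part in these counts was not tested.

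The inducible subunits replace the constitutive ones at fixed places in the core, Psmb8 for Psmb5, Psmb9 for Psmb6 and Psmb10 for Psmb7, so their ratio within a library does not depend on library scaling. The log2 ratio of Psmb9 to Psmb6 counts was lowest 0.446, median 0.817 and highest 1.21 in vehicle, and lowest 1.04, median 1.14 and highest 1.52 in TBT. Every TBT animal lay above the vehicle median, and vehicle 1 and vehicle 5 lay within the TBT range. The means were 0.85 ± 0.25 in vehicle (SD, n = 7) and 1.21 ± 0.19 in TBT (SD, n = 8). The difference of 0.36, a ratio 1.29-fold higher in TBT, passed an exact permutation test (two-sided, 6435 splits, p 0.00699, adjusted p 0.0210 over the 3 ratios). It did not pass without vehicle 6, the lowest of the vehicle ratios (0.30, exact permutation adjusted p 0.0520), nor without TBT 2, TBT 8 and vehicle 6 (0.32, exact permutation adjusted p 0.0844). With same-numbered animals as pairs the difference was 0.38 (exact sign-flip adjusted p 0.0938). By itself Psmb9 had a log2 fold change of 0.06 (edgeR adjusted p 0.979), smaller in size than that of Psmb6.

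The other ratios were lower in TBT and did not pass. The log2 ratio of Psmb8 to Psmb5 was 2.82 ± 0.74 in vehicle (SD, n = 7) and 2.50 ± 0.40 in TBT (SD, n = 8), a difference of -0.32 (exact permutation adjusted p 0.357). Without vehicle 7, whose ratio rests on 6 Psmb5 counts, the difference was -0.06 (exact permutation adjusted p 0.774). That of Psmb10 to Psmb7 was 0.01 ± 0.23 in vehicle and -0.17 ± 0.25 in TBT, a difference of -0.19 (exact permutation adjusted p 0.245). Without TBT 7, whose ratio was the highest of its group, the last difference was -0.26 and passed (exact permutation adjusted p 0.0402).

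**Figure D5:**
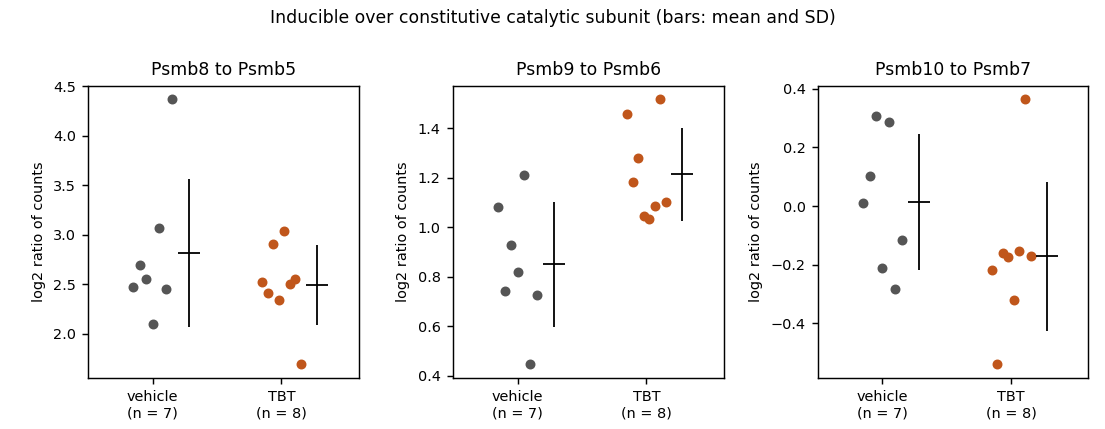
Log2 ratio of the counts of each inducible cutting subunit to its constitutive counterpart, a point per animal, with the mean and SD of vehicle (n = 7) and TBT (n = 8). For Psmb9 to Psmb6 all TBT animals lie above the vehicle median of 0.817, with vehicle 1 and vehicle 5 inside the TBT range.

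The genes that work with the proteasome were read from 4 lists, and none of their tested genes passed the adjusted threshold or had an unadjusted p under 0.05 (edgeR). Of the inducible core subunits 1 of 3 had a higher estimate. Of 10 other partners and assembly factors 7 had higher estimates, with Ecpas, which holds core and regulatory particle together, at 0.17 (8 of 8 TBT animals above the vehicle median, edgeR adjusted p 0.787) and Sem1, a small lid subunit, at 0.20 (8 of 8, edgeR adjusted p 0.803). Of 17 genes of ubiquitin supply and shuttling 7 had higher and 10 lower estimates. Among them the shuttle Ubqln4 was at -0.32 and the shuttle Rad23b at 0.12. Of 10 genes around NRF1, the factor that raises subunit genes when the proteasome is blocked, 6 had higher estimates. Of these, the related factor Nfe2l2 at 0.24 and its adaptor Keap1 at -0.26, had edgeR adjusted p of 0.839 each.

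The untested members had few counts. Psma8, the alpha subunit of the testis form, had 24 counts in all, in 7 of the 15 libraries, with at most 11 in any of them. Psmb11, the cutting subunit of the thymus form, had 13 counts in 5 libraries. Psmg3, a chaperone of the alpha ring, was present in all 15 libraries at up to 18 counts, 152 in all. A count of 0 in a library allows a level of up to 0.250 CPM of all counts in the deepest and 0.497 in the shallowest library (3 counts, counting error only). Of 6 further rows with similar symbols, 4 were pseudogenes, which together had 3 counts.

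There are 9 members that share exon sequence with a gene on the opposite strand: Psma4, Psma5, Psmb7, Psmc3, Psmd1, Psmd13, Psmd3, Psmd9 and Psme1. The kit keeps strand, but whether featureCounts used it is not given in the sources used here, so their levels may include reads of the partner. On the same strand 3 members, Psmb5, Psmd1 and Psmg3, share exon sequence with another gene. Strand cannot separate such reads, and how they were counted is not given, so these levels are uncertain as well.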

How the data were processed

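Trim Galore, HISAT2 (mm10) and featureCounts made the gene counts from the reads, per the submitters' processing notes. No version, annotation release or use of strand is given there. The table that the authors deposited holds raw whole-number counts for 15 animals, and columns were matched by sample description. Library totals were 6.03 M to 11.99 M, with at least 99.4% of counts in tested genes. Of the gene identifiers, 55450 were matched to GENCODE M21 (GRCm38) for coordinates.

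Genes were kept by filterByExpr and compared with edgeR 4.0.16 in R 4.3.3 (TMM, robust quasi-likelihood test, no covariate, Benjamini-Hochberg at 0.05 over all tested genes). DESeq2 1.42.0 and limma-voom (limma 3.58.1) were alternatives. Scripts were tested on simulated data. Ratios of subunits were log2 of counts plus 0.5, compared by two-sided exact permutation. Correlations used log2 of CPM plus 0.5, adjusted within each scale and coefficient. For all genes outside a list, the share at or under the largest permutation p that passed among the members on that scale was taken. Each library is 1 animal, litters are not named, and shared litters would make p-values too small.

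The members, gene lists and tests were chosen with earlier results of these data known. The rule for named genes took the cutting subunits, Psme1, Psme2, the tissue forms, the member with the smallest p in each role, the 5 smallest p up and the 5 down, and 2 genes per pathway list. Psme3, Psmf1, Psmd4, Psmd11, Psmd10 and other members given by value, the marker correlations, the motifs and the comparison of TBT 2 and TBT 8 were chosen after values had been seen. Hepatocyte markers were also listed and summed to 1.20 to 788 CPM per library. No protein sequences were used here.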

Additional observations from a re-analysis of the deposited data

Results flagged for a closer look

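In 46 groups of animals examined for a value far from the rest, 3 were found, where chance gives about 1 in 20. Psmb5 in vehicle 7 was 1.05 CPM, far below the other vehicle animals, in the library with the fewest counts. The log2 ratio of Psmb8 to Psmb5 in vehicle 7 was 4.37, far above the other vehicle animals, and shares the same Psmb5 count. The log2 ratio of Psmb10 to Psmb7 in TBT 7 was 0.365, far above the other TBT animals.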

How the results depend on the processing

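No member passed the adjusted threshold under any of the alternatives run. Genes called, 0 with edgeR, were 2 without the expression filter, 19 with DESeq2, 19 with limma-voom, 1 with the haemoglobin share as covariate and 7 without TBT 2, TBT 8 and vehicle 6. Members at an unadjusted p under 0.05, 1 with edgeR, were 2 without the filter (4.44%, against 11.3% of all genes), 0 with a stricter filter (all genes 6.18%), 4 with limma-voom (9.52% against 20.3%), 2 with the covariate (4.76% against 9.26%), 3 without the 3 libraries (6.98% against 17.0%) and 0 to 1 when single libraries were left out. The members' median log2 fold change was -0.012 with upper-quartile factors, -0.00095 with haemoglobin genes left out and -0.026 to 0.035 with single libraries left out. For 20 named genes and 25 alternatives, 480 estimates kept their sign and 15, of 5 genes, reversed. The rest had no value, since the stricter filter removed the gene. Psme3 was -0.38 with limma-voom, -0.29 with the replicate block, -0.032 with the covariate, -0.52 without the 3 libraries and -0.084 to 0.36 with single libraries left out. Psmf1 was -0.26 with limma-voom, -0.18 with the block, -0.32 without the 3 libraries and -0.044 to 0.28 with single libraries left out. With single libraries left out Psmb5 ran from -0.11 to 0.12, Psme2 from -0.0026 to 0.18 and Psmd4 from -0.31 to 0.026. The cause of these reversals was not tested. The Psmb9 to Psmb6 difference ranged from 0.30 to 0.42 with single libraries left out, losing its call without vehicle 6. It was 0.32 without the 3 libraries and 0.38 with the replicate block, both without a call. The Psmb10 to Psmb7 difference ranged from -0.26 to -0.13 and the Psmb8 to Psmb5 difference from -0.44 to -0.06, the smallest size being without vehicle 7. Same-numbered deviations correlated at 0.506 for number 3 and -0.235 to 0.148 for the others, and only number 3 matched best with its own. Other differences between libraries also enter these correlations, so they cannot show whether the replicate numbers pair the animals. The block left 0 members called. Depth limits Psmb5, Psmd9, Psmg1, Psmg2, Psmg4 and the untested genes most, each with fewer than 10 counts in some library.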
